A study of Mus musculus with 15 samples.

Results

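The 63 genes described here are mouse genes for zinc finger proteins, taken as every row of the count tables whose symbol is Zfp9 followed by 2 more digits (Zfp930 to Zfp995). They were 63 of 31017 genes in each table, and 303 other genes carried a Zfp symbol with another number. Each of the 63 matched 1 protein-coding gene of the GENCODE M21 annotation of mm10, on 12 chromosomes.

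Zinc finger proteins of this type read DNA through tandem C2H2 fingers, each of which contacts a few bases. Many carry a KRAB domain, which binds the co-repressor Trim28. Trim28 in turn brings the histone methyltransferase Setdb1, heterochromatin proteins and, in early embryos, DNA methylation to the bound site. The best known targets are transposable elements and imprinted regions. The genes lie in tandem clusters that grew by duplication, several of them in rodents alone, and deletion of whole clusters in mice, those on chromosomes 2 and 4 among them, raised expression of some retrotransposons. Of the genes described here, Zfp932 has been reported to repress endogenous retroviruses in mouse embryonic stem cells.

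RNA immunoprecipitation (RIP) libraries came from mice carrying a dominant Dnmt1 mutation, as homozygotes (Hom), heterozygotes (Het) and wild type littermates (WT). RNA bound by an antibody against Dnmt1 was sequenced from formaldehyde-fixed fibroblast lines (Dnmt1 RIP), with 2 libraries each of Hom, Het and WT. Messenger RNA bound by an antibody against 5-methylcytosine was sequenced from fibroblasts, with 1 Hom, 1 Het and 2 WT libraries, and from cortex, with 1 library of each genotype (m5C RIP). The remaining 2 of the 15 libraries were a fibroblast and a cortex input, which the labels title as input but assign to an IgG antibody and to no genotype. Dnmt1 is the enzyme that copies DNA methylation to the new strand after replication. The fibroblast lines were grown from tails of littermates of the same sex, and the sources used here give neither the age of the animals nor the number of lines per genotype. Whether 2 libraries of a group came from separate lines is not given either. The p-values below therefore measure only the spread between libraries, which may be technical within a group. In the m5C RIP only the fibroblast WT group has 2 libraries. The spread in fits over both tissues therefore also includes any difference in the effect of genotype between tissues. In bulk RNA, fewer cells of a type and less RNA per cell cannot be told apart.

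Gene counts per library ranged from 217173 in Dnmt1 RIP WT library 1 to 4913482 in the cortex input. In the fibroblast m5C RIP, no gene of the 31017 had fewer counts in WT library 1 than in the Hom library, and the 2 counts were equal for 7163 of the 21049 genes detected in that WT library. The same held for all 63 zinc finger genes, with equal counts for 21 of the 51 detected. These 2 libraries were therefore not treated as certain to be separate samples, and counts of called genes, counts of genes whose groups did not overlap and summed levels of the clusters are given without each of them as well. For the last pair of measures, this was chosen after the data had been seen. Counts called for genotype in the m5C RIP are not given without the Hom library, where 1 Hom library remains. Lars2, Gm42418, Gm26917 and Gm10800 together took 4.01 to 63.5% of the counts of a library, with the highest share in Dnmt1 RIP Hom library 1 and 58.4% in the fibroblast input. Dnmt1 itself was counted at 903 and 8868 CPM (gene counts scaled to 1 common library size) in the Hom, 1506 and 2018 in the Het and 2427 and 2943 in the WT libraries of the Dnmt1 RIP, and gene counts do not show which allele was read. In fibroblast m5C RIP, Dnmt1 was at 694 CPM in Hom, 396 in Het, 8797 in WT library 1 and 600 in WT library 2. The cause of the high value in WT library 1 was not tested. Fibroblast markers, a list of 10 genes with Col1a1 and Pdgfra among them, summed to 20664 to 29678 CPM in fibroblast m5C RIP and to 499 to 584 CPM in cortex m5C RIP. In the Dnmt1 RIP, also labelled fibroblast, they summed to 444 to 16337 CPM. They were at 444 and 2344 CPM in Hom, 16337 and 7630 in Het and 516 and 1524 in WT libraries. This label was therefore not borne out evenly by its markers.

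Of the 63 genes, 40 lay in 4 clusters of at least 4, counted where neighbours lay less than 1 Mb apart. The chromosome 4 cluster held 16 (chr4:145510759-147848366, mm10), the chromosome 2 cluster 10 (chr2:175372436-178078476), the chromosome 17 cluster 10 (chr17:21567008-22867134) and the chromosome 7 cluster 4 (chr7:42579783-43192109). Counting C2H2 patterns in the longest reading frame of each annotated transcript gave 0 to 21 fingers per gene, with a median of 11, and at least 1 finger in 61 genes. A pattern of the KRAB A box was found in 53 of the 63 genes, and in 16 of 16 on chromosome 4.

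The promoter windows of 6 of these genes are printed because levels of the chromosome 4 genes and of Zfp933, Zfp941 and Zfp950 differed between tissues in opposite directions, as described below. Zfp984, Zfp979, Zfp985 and Zfp933 are neighbours in the chromosome 4 cluster, and Zfp941 and Zfp950 lie alone on chromosomes 7 and 19. Each window runs from 250 bases before to 50 bases after the RefSeq start on GRCm38.p6, the assembly behind mm10, 5′ to 3′ on the gene's strand, with each CG dinucleotide, the site of DNA methylation by Dnmt1, in capitals.
Zfp984 (chr4:147809739-147810038, minus strand): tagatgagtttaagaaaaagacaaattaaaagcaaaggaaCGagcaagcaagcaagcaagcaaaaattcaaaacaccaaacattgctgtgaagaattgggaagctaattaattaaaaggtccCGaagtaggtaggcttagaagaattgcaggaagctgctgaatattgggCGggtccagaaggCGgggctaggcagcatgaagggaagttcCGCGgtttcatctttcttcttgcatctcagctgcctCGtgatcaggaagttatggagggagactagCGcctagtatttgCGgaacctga
Zfp979 (chr4:147642459-147642758, minus strand): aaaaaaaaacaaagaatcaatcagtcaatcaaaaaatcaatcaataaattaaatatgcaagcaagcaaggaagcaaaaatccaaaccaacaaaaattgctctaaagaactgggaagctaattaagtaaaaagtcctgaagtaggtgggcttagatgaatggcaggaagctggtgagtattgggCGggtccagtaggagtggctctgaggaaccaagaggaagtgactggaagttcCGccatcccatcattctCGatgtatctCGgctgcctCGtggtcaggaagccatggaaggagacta
Zfp985 (chr4:147553027-147553326, plus strand): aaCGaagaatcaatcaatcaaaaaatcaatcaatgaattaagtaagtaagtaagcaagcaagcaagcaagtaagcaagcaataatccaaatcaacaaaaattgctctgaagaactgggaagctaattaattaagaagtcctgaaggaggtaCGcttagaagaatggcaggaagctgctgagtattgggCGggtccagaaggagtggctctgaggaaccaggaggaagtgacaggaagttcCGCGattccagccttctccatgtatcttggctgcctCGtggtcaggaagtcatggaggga
Zfp933 (chr4:147848369-147848668, minus strand): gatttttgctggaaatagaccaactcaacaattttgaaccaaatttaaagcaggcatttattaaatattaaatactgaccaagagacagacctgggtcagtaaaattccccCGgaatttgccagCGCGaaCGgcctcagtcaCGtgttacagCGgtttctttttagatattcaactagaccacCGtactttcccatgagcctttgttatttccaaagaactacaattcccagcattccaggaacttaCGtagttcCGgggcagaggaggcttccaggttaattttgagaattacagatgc
Zfp941 (chr7:140822129-140822428, minus strand): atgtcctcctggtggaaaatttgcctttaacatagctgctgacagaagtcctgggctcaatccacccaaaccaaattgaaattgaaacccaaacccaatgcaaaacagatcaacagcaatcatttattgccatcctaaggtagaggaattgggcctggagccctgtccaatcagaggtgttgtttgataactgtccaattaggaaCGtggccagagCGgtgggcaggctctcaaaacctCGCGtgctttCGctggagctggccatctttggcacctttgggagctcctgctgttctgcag
Zfp950 (chr19:61140791-61141090, minus strand): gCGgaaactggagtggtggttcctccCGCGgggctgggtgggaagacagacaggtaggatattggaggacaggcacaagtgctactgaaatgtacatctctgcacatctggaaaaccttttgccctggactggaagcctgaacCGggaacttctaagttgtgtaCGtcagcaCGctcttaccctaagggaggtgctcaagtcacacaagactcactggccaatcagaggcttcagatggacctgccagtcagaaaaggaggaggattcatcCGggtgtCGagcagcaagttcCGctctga
A RefSeq window was found for 53 of the 63 genes. CG, which reads the same on both strands, occurred 3 to 24 times in these windows, with a median of 8, against a median of 7 over 27025 promoters of the same length. At least 5 CG were present in 79.2% of these windows against 61.7% of all promoters, and the medians were 4.5 for 10 chromosome 4 genes, 5 for 9 chromosome 2 genes and 10.5 for 10 chromosome 17 genes. These figures use all 53 windows, of which 48 lie within 1000 bases of the annotated start. The windows of Zfp981, Zfp982 and Zfp993 on chromosome 4 lie farther away. Among 6 chromosome 4 genes other than Zfp933 whose window lies at the annotated start, pairwise identity had a median of 75.4% (59.7 to 89.8%, 15 pairs). Zfp933 shared a median of 50.9% (49.6 to 51.3%) with the same 6 windows. Windows of all 10 chromosome 4 genes shared a median of 48.7% (45.7 to 52.3%) with those of Zfp941, Zfp950 and Zfp948, a figure that includes the pairs among those 3. These are features of the reference sequence, and no methylation of DNA was measured here.

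Levels were low throughout. Summed over the 63 genes, the level was 387 and 520 CPM in Hom, 550 and 644 in Het and 654 and 421 in WT libraries of the Dnmt1 RIP. It was 251 CPM in Hom, 240 in Het and 305 and 285 in WT fibroblast m5C RIP, and 387 in Hom, 464 in Het and 333 in WT cortex m5C RIP. The cortex input stood at 400 CPM, within the range of the cortex m5C RIP, and the fibroblast input at 52.4 CPM with 12 counts in all. At least 1 count was found for 62 genes, and Zfp930, Zfp940, Zfp943 and Zfp945 were detected in every library. Zfp935 had 0 counts in all 15 libraries, and its transcripts are shared in full with other annotated genes. A count of 0 allows up to 3 counts, or 0.611 CPM in the deepest library and 13.8 CPM in the shallowest, and all intervals and limits here cover counting error only.

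Per kb of exon, the genes with the highest mean level over the 13 RIP libraries were Zfp938 at 5.23, Zfp956 at 5.15, Zfp949 at 4.43, Zfp948 at 4.17, Zfp933 at 3.9997 and Zfp981 at 3.56 CPM per kb. Their order differed between sources. Zfp981 averaged 6.68 ± 4.19 CPM per kb in the Dnmt1 RIP (SD, n = 6), against 1.13 ± 0.85 in fibroblast m5C RIP (n = 4) and 0.56 ± 0.98 in cortex m5C RIP (n = 3). Zfp938 averaged 4.06 ± 1.70, 6.05 ± 1.52 and 6.49 ± 1.598 CPM per kb in the same 3 sources, and the libraries of the 3 sources overlapped.

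**Figure D1:**
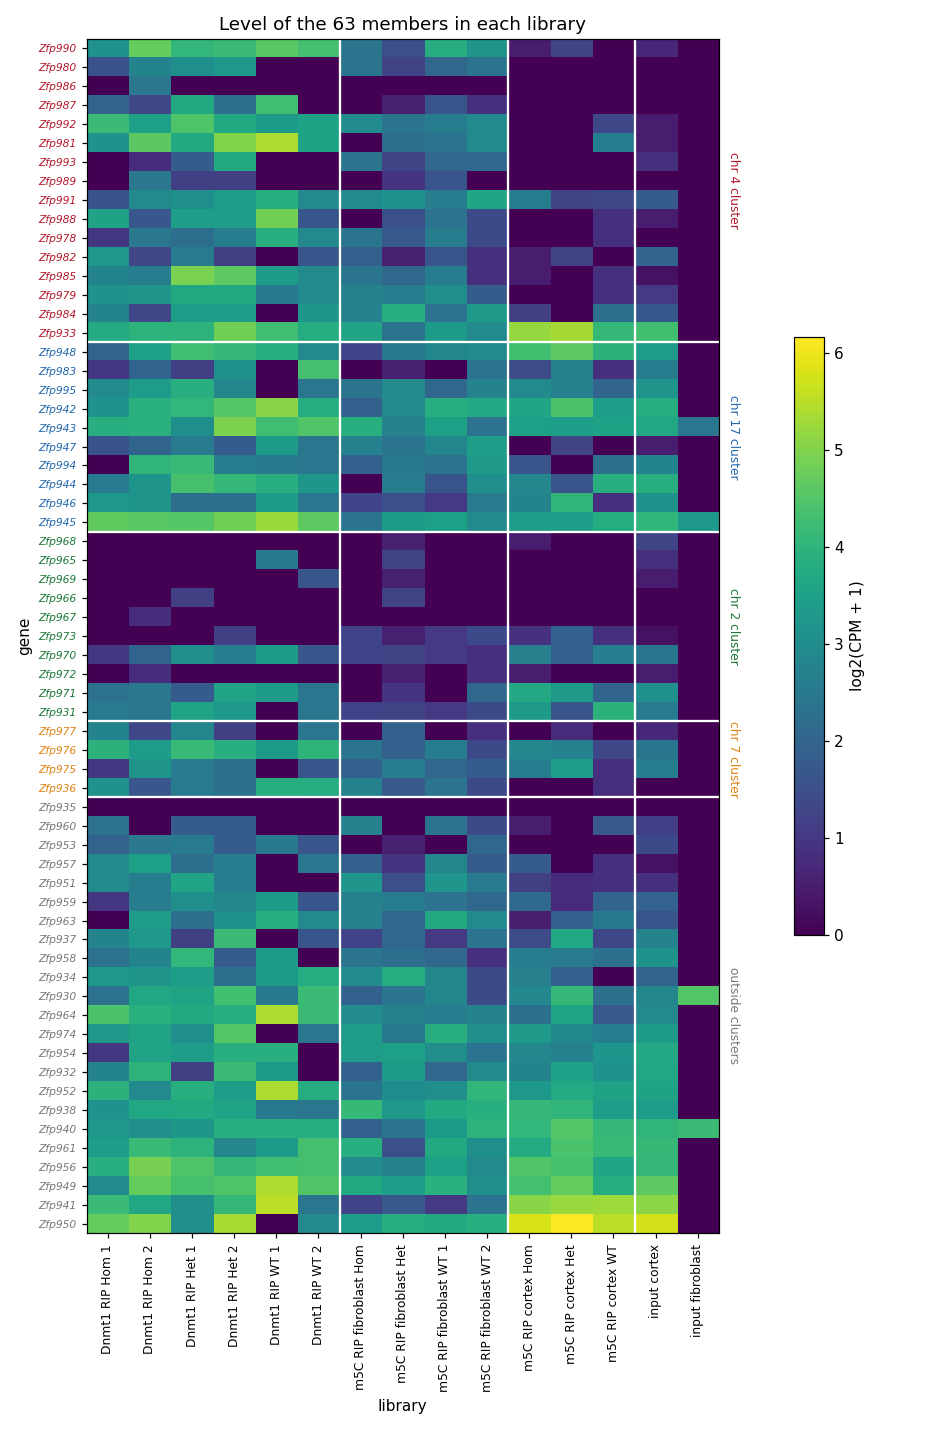
Level of each of the 63 genes (rows, ordered along the chromosome within each cluster) in each of the 15 libraries (columns), as log2(CPM + 1) in colour. Most chromosome 4 rows other than Zfp933 are darker in the 3 cortex m5C RIP columns than in those of fibroblasts, and the Zfp950 row is brightest there.

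How much of a gene can be told from its relatives may limit these counts. Of all 50-base stretches of a gene's annotated transcripts, a median of 20.1% also occurred in another gene. The median was 87.3% in the chromosome 2 cluster (23.3 to 100%), 61.2% in the chromosome 4 cluster (1.83 to 89.0%), 18.0% on chromosome 7, 7.81% on chromosome 17 and 2.84% outside these clusters. The 10 genes with fewer than 15 counts over all libraries had a median of 92.7%, against 15.6% for the other 53. Whether shared sequence or low expression lay behind their low counts was not tested. The sources used here do not say how reads that fit several genes were counted, so counts of genes that share most of their sequence are uncertain. Exons of 9 genes overlapped those of another gene on the same strand (Zfp941 with Gm45785, Zfp984 with Gm20707 and Zfp956 with Zfp783 among them), and 3 on the opposite strand (Zfp943, Zfp961 and Zfp974). Nor do they give the strand setting of the counting.

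**Figure D2:**
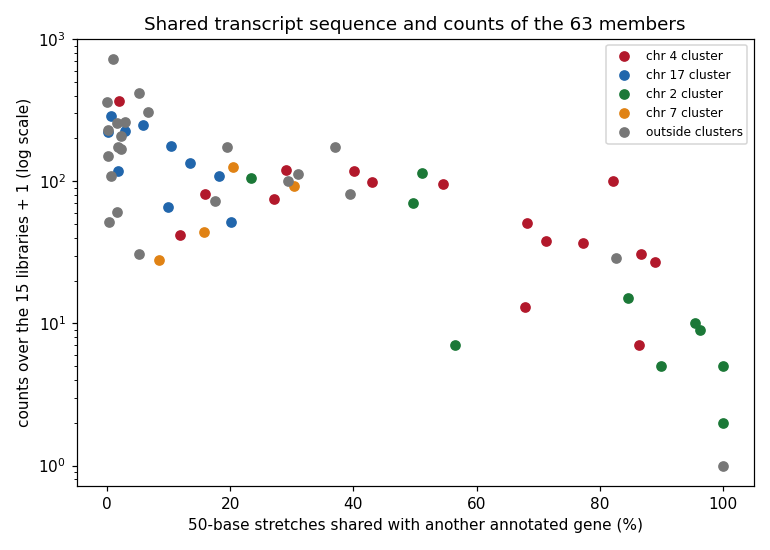
Share of each gene's 50-base stretches that also occur in another annotated gene (x axis, %) against its counts over the 15 libraries plus 1 (y axis, log scale), 1 point per gene, coloured by cluster. Genes with under 15 counts lie between 56.5 and 100% shared sequence.

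Fibroblasts and cortex were compared with the same antibody over the 7 m5C RIP libraries, with genotype as a covariate. The calls kept in 12 of 12 alternative fits were lower levels of Zfp941, Zfp950, Zfp933 and Zfp948 in fibroblasts than in cortex. Against these, several chromosome 4 cluster genes were higher in fibroblasts, and the cluster without Zfp933 was low in cortex. Of all genes tested, 63.9% differed between the tissues (edgeR's quasi-likelihood test, adjusted p under 0.05), 33% higher and 30.9% lower in fibroblasts. Of the 63 zinc finger genes 32 passed the filter on low counts, of which 5 were called higher and 7 lower in fibroblasts, or 37.5% in all. Among 246 other numbered Zfp genes tested, 25 were higher and 84 lower, or 44.3%. The median log2 fold change was -0.39 for the 32 genes, 0.06 for all genes tested and -0.49 for the other Zfp genes. With total counts as the only scaling the median of all genes moved to -0.09.

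Zfp941 was at 1.38 CPM in Hom, 2.31 in Het and 1.02 and 4.08 in WT fibroblast m5C RIP, against 32.4 CPM in Hom, 36.2 in Het and 37.4 in WT cortex. Each cortex library was above each fibroblast library, and the cortex input was alike at 33.0 CPM. The log2 fold change was -3.76 ± 0.41 (SE, edgeR adjusted p = 1.54e-06). The fibroblast values are 12 counts in all, and Zfp941 passed the filter on low counts through the cortex libraries alone.

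Zfp950 was at 9.64 CPM in Hom, 13.4 in Het and 12.3 and 13.9 in WT fibroblast m5C RIP, against 54.4 in Hom, 70.4 in Het and 45.0 in WT cortex. The groups did not overlap, and the cortex input lay among the cortex m5C RIP libraries at 52.1 CPM. Its log2 fold change was -1.998 ± 0.27 (edgeR adjusted p = 1.13e-05).

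Zfp933, which ends the chromosome 4 cluster, was at 11.02 CPM in Hom, 4.16 in Het and 9.23 and 6.52 in WT fibroblast m5C RIP, against 35.3 in Hom, 39.0 in Het and 16.02 in WT cortex. The groups did not overlap, although the WT cortex library was closer to the fibroblasts than the other two, and the log2 fold change was -1.79 ± 0.41 (edgeR adjusted p = 0.00157). Zfp948 of the chromosome 17 cluster was at 1.38 CPM in Hom, 4.62 in Het and 6.15 and 6.52 in WT fibroblast m5C RIP, against 18.7 in Hom, 23.7 in Het and 14.5 in WT cortex, a log2 fold change of -1.86 ± 0.47 (edgeR adjusted p = 0.00321). Its fibroblast values are 25 counts in all, and it too passed the filter through the cortex libraries alone. Zfp941, Zfp950, Zfp933 and Zfp948 each kept their call in 12 of 12 alternatives, among them the fits without WT library 1 and without the Hom library of the fibroblasts. Between 0.12 and 5.09% of their 50-base stretches were shared with other genes. Zfp931 (log2 fold change -2.26 ± 0.81), Zfp940 (-1.32 ± 0.48) and Zfp956 (-1.08 ± 0.43) were also called lower in fibroblasts and lost their call in 5 or 6 of 12 alternatives each.

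Of the 5 genes called higher in fibroblasts, 3 belong to the chromosome 4 cluster. Zfp990 was at 4.13 CPM in Hom, 1.85 in Het and 13.3 and 8.15 in WT fibroblast m5C RIP, against 0.415 in Hom, 1.39 in Het and 0 in WT cortex. The cortex values are 3 counts in all, and the ratio of pooled CPM was 10.1 with an exact 95% counting interval of 3.15 to 51.8. Zfp984 was at 5.51 CPM in Hom, 13.4 in Het and 4.10 and 8.97 in WT fibroblast m5C RIP, against 1.25 in Hom, 0 in Het and 3.82 in WT cortex (log2 fold change 2.34 ± 0.88, edgeR adjusted p = 0.0305). Zfp991 was at 6.89 CPM in Hom, 7.86 in Het and 5.12 and 11.4 in WT fibroblast m5C RIP, against 4.98 in Hom, 1.39 in Het and 1.53 in WT cortex (1.80 ± 0.74, edgeR adjusted p = 0.0444). The Hom cortex library came close to the lowest fibroblast library for Zfp991, and 82.2% of its 50-base stretches were shared.

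The other 2 genes called higher lie outside that cluster. Zfp947 on chromosome 17 was at 5.51 CPM in Hom, 4.16 in Het and 6.15 and 9.78 in WT fibroblast m5C RIP, against 0 in Hom, 1.39 in Het and 0 in WT cortex. With 2 counts in cortex the ratio of pooled CPM was 15.7, with an exact 95% counting interval of 3.99 to 135. Zfp951 on chromosome 5 was at 8.27 CPM in Hom, 1.85 in Het and 8.20 and 4.89 in WT fibroblast m5C RIP, against 1.25 in Hom, 0.697 in Het and 0.763 in WT cortex (log2 fold change 2.58 ± 1.01, edgeR adjusted p = 0.0368).

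These 5 calls rested on few counts. The number called higher was 3 without fibroblast WT library 1, without WT library 2 or without the Het library, where 32.8%, 33.2% and 29.1% of all genes were called higher. It was 2 without the fibroblast Hom, the cortex Het or the cortex Hom library (28.4%, 29.1% and 29.2% of all genes) and 1 without the cortex WT library (28.2%). Tables of 6 libraries, the fibroblast m5C Het and Hom and all of cortex, hold 5 extra entries for reads outside genes and the other 9 do not. Within the tables that hold them, 1 of 28 genes tested was called higher and 9 lower, where 57.5% of all genes were called, 29.2% higher and 28.3% lower.

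**Figure D3:**
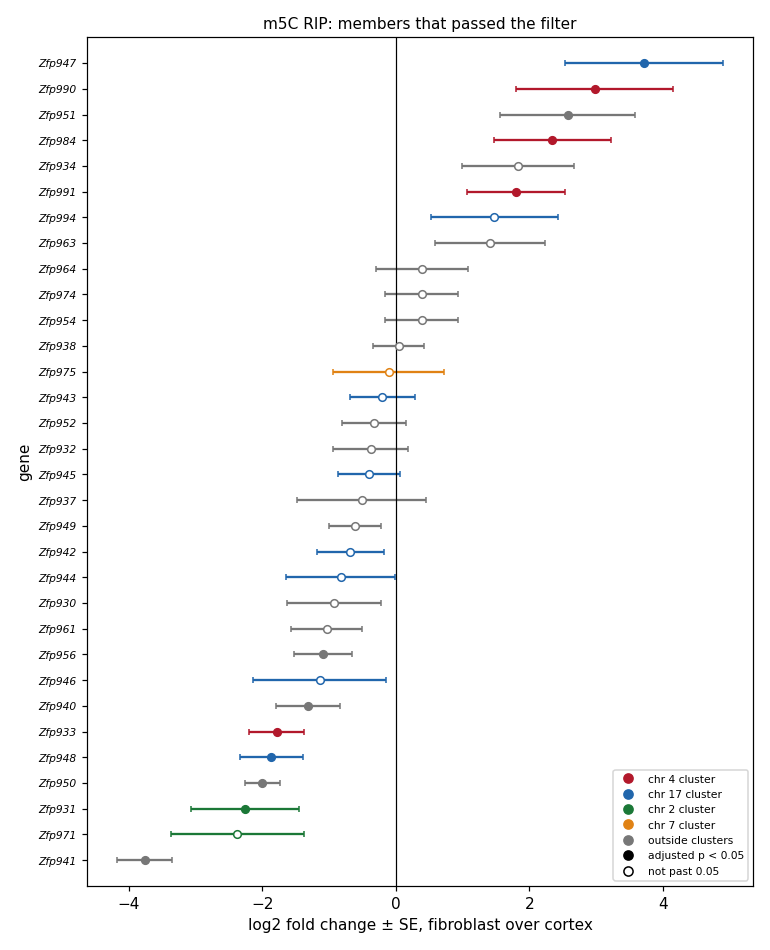
Log2 fold change of fibroblast over cortex m5C RIP with its standard error (x axis) for the 32 genes that passed the filter (y axis), from the fit over 7 libraries. Filled points passed an adjusted p of 0.05. The 3 filled chromosome 4 genes on the right were higher in fibroblasts, and Zfp933 of the same cluster lay on the left at -1.79.

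A gene that is nearly absent from one tissue passes the filter mainly through the other, so the cluster was also described over all its members. All 4 fibroblast m5C RIP libraries were above all 3 cortex libraries for 12 of the 63 genes, where 20.7% of 27697 genes did the same. The opposite order held for 8 genes, where 20% of genes did. On chromosome 4 the fibroblast libraries were above those of cortex for 9 of 16 genes, and the cortex libraries were higher for Zfp933 alone. Without fibroblast WT library 1, the fibroblast libraries were above for 12 of the 63 genes (21.8% of all genes) and the cortex libraries for 10 (20.9%), and without the fibroblast Hom library for 15 (22.3%) and 10 (20.7%). On chromosome 4 the fibroblast libraries were above for 9 and 11 genes in these 2 settings. Of the 16, 5 had 0 counts in every cortex m5C RIP library, where a count of 0 allows up to 1.25 to 2.29 CPM.

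The chromosome 4 cluster was summed without Zfp933, a separation made after its values had been seen. The other 15 genes together stood at 48.2 CPM in Hom, 48.1 in Het and 65.6 and 57.1 in WT fibroblast m5C RIP, against 7.47 in Hom, 4.18 in Het and 15.3 in WT cortex. The groups did not overlap, with means of 54.7 ± 8.37 CPM (SD, n = 4) in fibroblasts and 8.97 ± 5.69 CPM (n = 3) in cortex, a ratio of 6.10. Without WT library 1 the fibroblast mean was 51.1 CPM and the ratio 5.70, and without the Hom library 56.9 CPM and 6.34. The cortex input was alike at 11.6 CPM. With Zfp933 included the means were 62.5 CPM in fibroblasts and 39.1 CPM in cortex, a ratio of 1.598, which was 1.49 without WT library 1 and 1.63 without the Hom library of the fibroblasts. For Zfp979, Zfp982, Zfp985 and Zfp990, the cluster's genes other than Zfp933 with under 30% of their sequence shared, the means were 16.8 CPM in fibroblasts and 1.85 CPM in cortex, a ratio of 9.05, which was 7.08 without WT library 1 and 9.09 without the Hom library. The cortex values rest on 3 counts in Hom, 4 in Het and 2 in WT. In the cortex input these 4 genes summed to 4.88 CPM from 24 counts, above each cortex m5C RIP library (highest 2.79 CPM). This was below the lowest fibroblast m5C RIP library of 10.6 CPM. The counting interval of the input, 3.13 to 7.27 CPM, overlapped that of each cortex m5C RIP library. Among these 4 genes, Zfp985 was at 4.13 CPM in Hom, 3.23 in Het and 5.12 and 0.815 in WT fibroblast m5C RIP, against 0.415 in Hom, 0 in Het and 0.763 in WT cortex.

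**Figure D4:**
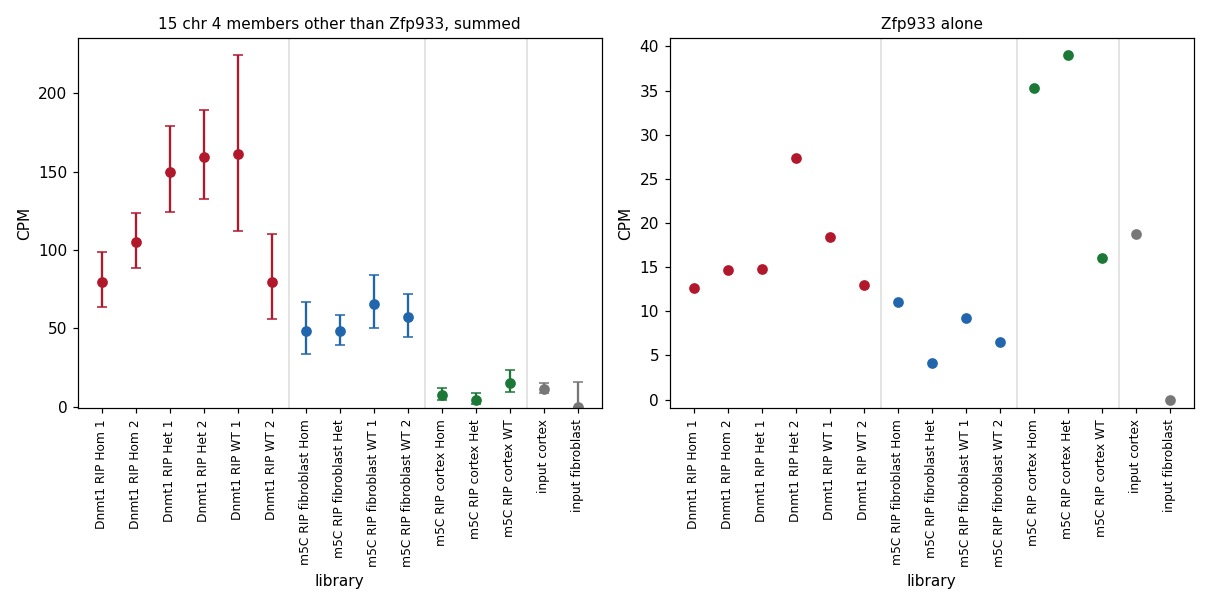
Summed CPM of the 15 chromosome 4 cluster genes other than Zfp933 with exact 95% counting intervals (left) and CPM of Zfp933 (right) in each library. The sum lies between 4.18 and 15.3 CPM in the cortex m5C RIP and between 48.1 and 65.6 CPM in the fibroblast m5C RIP, whereas Zfp933 is highest in the Hom and Het cortex libraries.

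The other clusters differed less or in the opposite direction. The chromosome 2 cluster stood at 4.13 CPM in Hom, 8.32 in Het and 3.08 and 8.15 in WT fibroblast m5C RIP, against 28.2 in Hom, 16.7 in Het and 23.7 in WT cortex, with no overlap. In it, Zfp971 averaged 1.05 ± 1.54 CPM in fibroblasts (SD, n = 4) and 8.05 ± 4.58 CPM in cortex (n = 3), and Zfp970 1.15 ± 0.28 and 4.51 ± 1.49 CPM; Zfp971 just missed the threshold and Zfp970 did not pass the filter. The chromosome 17 cluster averaged 52.7 ± 14.4 CPM in fibroblasts (SD, n = 4) and 78.6 ± 12.8 CPM in cortex (n = 3), and the lowest cortex value of 70.2 CPM was about level with the highest fibroblast value of 70.1 CPM. Its Zfp942 averaged 8.69 ± 4.97 CPM in fibroblasts and 13.8 ± 5.61 CPM in cortex, and Zfp943 8.41 ± 4.44 and 10.3 ± 0.47 CPM, each within the spread between libraries. The chromosome 7 cluster averaged 11.04 ± 3.03 and 10.1 ± 6.56 CPM in the same order, within the spread between libraries, although Zfp936, one of its genes, averaged 3.39 ± 1.76 CPM in fibroblasts and 0.25 ± 0.44 CPM in cortex. The 23 genes outside the clusters averaged 138 ± 16.8 CPM in fibroblasts and 244 ± 46.3 CPM in cortex, and without Zfp941 and Zfp950 124 ± 18.1 and 152 ± 33.5 CPM. Without WT library 1 and without the Hom library, the fibroblast means were 6.87 and 6.51 CPM for chromosome 2, 51.5 and 58.3 CPM for chromosome 17, 10.6 and 10.59 CPM for chromosome 7 and 131 and 138 CPM outside the clusters.

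Neuron and fibroblast markers differed between the tissues in the direction of the labels. A neuron list of 8 genes summed to 325 to 576 CPM in fibroblast and 5165 to 5218 CPM in cortex m5C RIP, with every marker detected in each. A macrophage list of 7 genes, Csf1r and C1qa among them, summed to 2801 to 4755 CPM in fibroblast m5C RIP and 131 to 155 CPM in cortex, and the part of such cells in these differences was not tested.

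The antibodies were compared in fibroblasts over 6 Dnmt1 RIP and 4 m5C RIP libraries, with genotype as a covariate. Of the zinc finger genes tested, 17.5% were called higher in the Dnmt1 RIP, the same share as of all genes, and 0 were called lower. Zfp981, Zfp945 and Zfp941 had the smallest p. Of all genes tested 40.2% differed, 17.5% higher and 22.6% lower in the Dnmt1 RIP. Of the 63 genes 40 passed the filter, of which 7 were called higher and 0 lower with edgeR (9 at an unadjusted p under 0.05). DESeq2 called 10 higher and 0 lower, where it called 23.1% of all genes higher and 20.2% lower. The median log2 fold change was 0.75 for the 40 genes, 0.22 for all genes tested and 0.48 for 261 other Zfp genes, of which 36 were called higher and 16 lower. With total counts as the only scaling, the median of all genes moved to 0.58 and that of the 40 genes to 1.09, and 3830 genes were higher and 2096 lower in place of 3004 and 3878. The 2 preparations of RNA differed along with the antibody, and what the antibody and the preparation each contributed cannot be told apart.

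Zfp981 of the chromosome 4 cluster was at 7.77 and 23.5 CPM in Hom, 12.3 and 31.1 in Het and 41.4 and 10.8 in WT Dnmt1 RIP, against 0 in Hom, 3.70 in Het and 4.10 and 6.52 in WT m5C RIP. Each Dnmt1 RIP library was above each m5C RIP library (log2 fold change 2.15 ± 0.59, edgeR adjusted p = 0.00893), and 40.0% of the gene's sequence was shared.

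Zfp945 of the chromosome 17 cluster was at 24.3 and 22.7 CPM in Hom, 22.1 and 27.3 in Het and 36.8 and 23.8 in WT Dnmt1 RIP, against 4.13 in Hom, 9.24 in Het and 10.2 and 6.52 in WT m5C RIP. Its Dnmt1 RIP libraries were close to each other, apart from WT library 1, and the log2 fold change was 1.44 ± 0.42 (edgeR adjusted p = 0.0128).

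Zfp941 was at 17.5 and 11.7 CPM in Hom, 7.37 and 16.2 in Het and 46.0 and 4.32 in WT Dnmt1 RIP, against 1.38 in Hom, 2.31 in Het and 1.02 and 4.08 in WT m5C RIP. WT library 2 barely passed the highest m5C RIP library, and without WT library 1 of the Dnmt1 RIP the adjusted p of 0.0132 became 0.0571 (edgeR, log2 fold change 2.39 ± 0.70 with it and 1.96 without it). The remaining calls were Zfp976 (log2 fold change 1.73 ± 0.61), Zfp990 (1.39 ± 0.51), Zfp964 (1.37 ± 0.47) and Zfp956 (1.14 ± 0.43). These 4 lost their call in 7 of 15, 8 of 16, 8 of 16 and 10 of 16 alternatives, in that order. Zfp981 lost its call in 1 of 15, Zfp945 in 3 of 16 and Zfp941 in 3 of 15. Of the genes with lower fitted levels in the Dnmt1 RIP, those with the smallest p were Zfp938 (-0.84 ± 0.48), Zfp993 (-1.31 ± 1.26) and Zfp984 (-0.67 ± 0.68), and none passed.

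Over all 63 genes, each of the 6 Dnmt1 RIP libraries was above each of the 4 m5C RIP libraries for 9, where 8.67% of 29376 genes did the same, and the opposite order held for 0, where 5.84% of genes did. In the chromosome 4 cluster the first order held for 4 of 16 genes. Without m5C RIP WT library 1 it held for 10 of the 63 (9.76% of all genes) and 5 of the 16, and without the m5C RIP Hom library for 9 (9.28% of all genes) and 4, and the opposite order for 0 in both. The cluster without Zfp933 stood at 79.7 and 105 CPM in Hom, 150 and 159 in Het and 161 and 79.9 in WT Dnmt1 RIP, each above the highest m5C RIP library of 65.6 CPM. Hom library 1 and WT library 2 were about level as the lowest of the 6. The chromosome 2, 7 and 17 sums, the genes outside the clusters and all 63 genes did not overlap either. Their ratios of means were 3.02, 2.47, 2.18, 1.67 and 1.96, beside 2.24 for chromosome 4 without Zfp933. Genes outside the clusters overlapped once Zfp941 and Zfp950 were left out. With total counts as the only scaling, as in CPM, the median log2 fold change of all genes was 0.58. Lars2, Gm42418, Gm26917 and Gm10800 took 63.5% of the counts in Hom library 1 and 25.4% in WT library 2. Their part in these levels was not tested.

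The calls between antibodies depended on the libraries. The number called higher was 4 without Dnmt1 RIP Het library 1, without Hom library 1, without m5C RIP WT library 2 or without the m5C RIP Het library, where 15.8%, 16.4%, 15.6% and 13.6% of all genes were called higher. It was 1 without the m5C RIP Hom library, where 9.85% of all genes were, against 7 without m5C RIP WT library 1, where 15% were. Within the libraries whose tables hold genes alone, the 6 Dnmt1 RIP and the 2 WT m5C RIP libraries, 0 of 30 genes tested were called (2 at an unadjusted p under 0.05), where 16.8% of all genes were called, 6.6% higher and 10.2% lower. Neuron markers summed to 1125 to 2906 CPM in the Dnmt1 RIP and 325 to 576 CPM in the m5C RIP of fibroblasts. In the same order, astrocyte markers, a list of 5 genes, summed to 719 to 1888 and 224 to 351 CPM. Oligodendrocyte markers, also 5 genes, summed to 699 to 1966 and 206 to 375 CPM, and macrophage markers to 30.1 to 1912 and 2801 to 4755 CPM. The part of such cells in these differences was not tested.

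**Figure D5:**
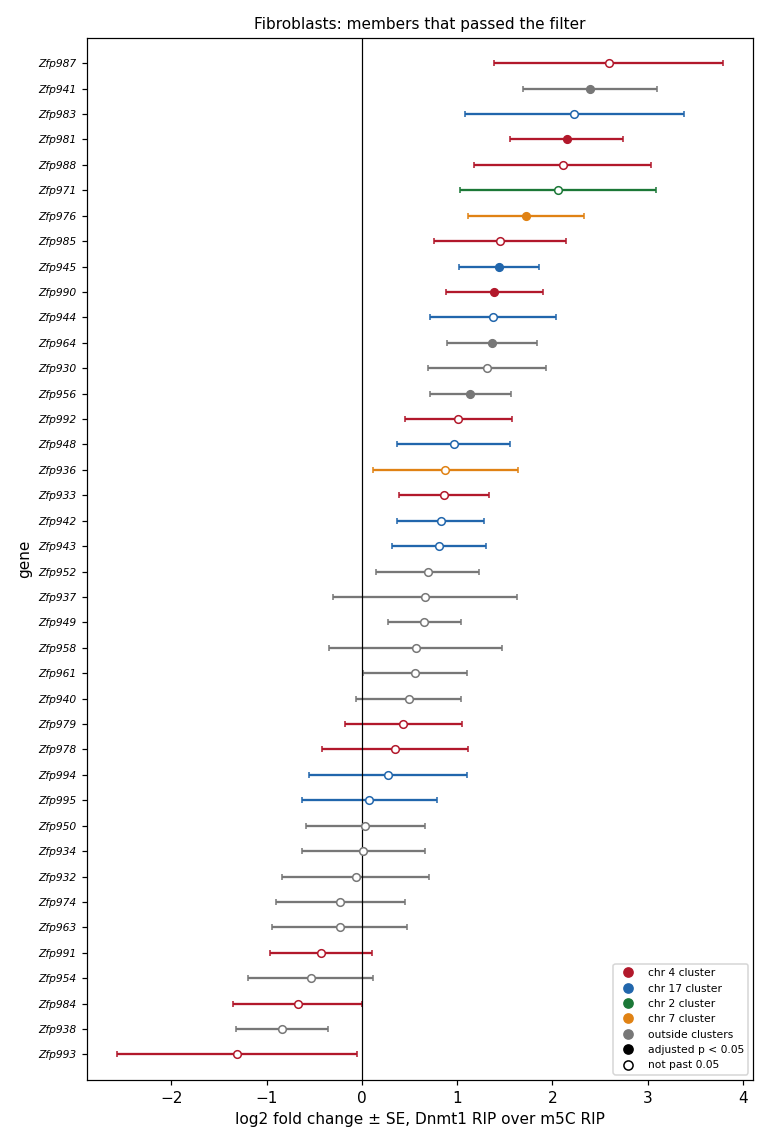
Log2 fold change of Dnmt1 RIP over m5C RIP in fibroblasts with its standard error (x axis) for the 40 genes that passed the filter (y axis), from the fit over 10 libraries. Filled points passed an adjusted p of 0.05, and the 7 filled genes lie between 1.14 and 2.39, to the right of the median of all genes at 0.22.

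The genotypes were compared within each antibody. No zinc finger gene passed the test for genotype in either RIP. In the Dnmt1 RIP, 24 of the 63 genes were tested for Hom over WT, Het over WT and Hom over Het, and 0 were called (edgeR, 0% of 13589 genes called in each). At an unadjusted p under 0.05 there were 1, 0 and 1 of the 24 genes, and 309, 868 and 629 of all genes. DESeq2 called 0 of the 24 in each comparison, and 0, 11 and 15 of all genes. The median log2 fold changes of the 24 genes were 0.02, -0.0034 and 0.17, beside 0.01, 0.03 and -0.02 for all genes. With total counts as the only scaling the medians of all genes moved to -0.38 for Hom over WT and -0.36 for Hom over Het, and those of the 24 genes to -0.49 and -0.35.

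Zfp950 had the smallest p for Hom over WT. It was at 25.3 and 30.8 CPM in Hom, 7.37 and 39.8 in Het and 0 and 6.48 CPM in WT Dnmt1 RIP. Both Hom libraries were above both WT libraries, but the WT values rest on 3 counts, and the ratio of pooled CPM of Hom to WT was 6.45 with an exact 95% counting interval of 2.11 to 32.0. Its fitted log2 fold change was 3.17 ± 1.06 (edgeR, adjusted p = 1). In the m5C RIP, where Zfp950 had more counts, it was at 9.64 CPM in Hom, 13.4 in Het and 12.3 and 13.9 in WT fibroblasts, and at 54.4 in Hom, 70.4 in Het and 45.0 in WT cortex (Hom over WT -0.04 ± 0.33, Het over WT 0.26 ± 0.31).

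Zfp985 of the chromosome 4 cluster had the smallest p of the zinc finger genes tested for Hom over Het in the Dnmt1 RIP, and was not called. It was at 5.83 and 5.14 CPM in Hom, 29.5 and 23.6 in Het and 9.21 and 6.48 in WT libraries. Het did not overlap either other genotype, and the share of all genes with this order was not counted. The log2 fold changes were 1.89 ± 0.90 for Het over WT (edgeR adjusted p = 0.804) and -1.84 ± 0.80 for Hom over Het (edgeR adjusted p = 0.988). The fibroblast markers given above were also highest in the 2 Het libraries, and their part in this level was not tested.

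In the m5C RIP, both tissues were fitted together with tissue as a covariate, and 0 of 32 genes tested were called for Hom over WT or for Het over WT (edgeR, 0% of 14193 genes called in each). None of the 32 had an unadjusted p under 0.05, compared with 122 and 564 of all genes, and DESeq2 called 0 in both. Median log2 fold changes were -0.10 and -0.16 for the 32 genes, beside -0.0011 and -0.03 for all genes. Zfp934 had the smallest p in both. It was at 6.89 CPM in Hom, 12.9 in Het and 6.15 and 1.63 in WT fibroblasts, and at 5.40 in Hom, 2.79 in Het and 0 in WT cortex, and in fibroblasts Hom exceeded WT library 1 by less than the 2 WT libraries differed. The log2 fold changes were 1.92 ± 1.02 for Hom over WT and 1.80 ± 0.94 for Het over WT (edgeR adjusted p = 1 and 0.989). Zfp934 overlaps exons of Zfp935 on the same strand. Without fibroblast WT library 1, 0 of 31 zinc finger genes were called in either comparison. Of 14064 genes tested there, 3 were called higher and 14 lower for Hom over WT, and 1 higher and 9 lower for Het over WT. Leaving out the fibroblast Hom library leaves 1 Hom library, so only medians are given. They were -0.17 for Hom over WT and -0.15 for Het over WT, beside 0.0007 and -0.03 for all genes.

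Precipitated RNA was set against input in cortex, where the 3 m5C RIP libraries of different genotypes were compared with 1 input. None of 31 zinc finger genes tested was called by edgeR (1 at an unadjusted p under 0.05) or DESeq2, where 0.481% of 13518 genes were called by edgeR. The smallest p was that of Zfp948, at 18.7 CPM in Hom, 23.7 in Het and 14.5 in WT m5C RIP, against 9.57 CPM in the input (log2 fold change 0.98 ± 0.43, edgeR adjusted p = 0.645). All 3 m5C RIP libraries were above the input, by less than the spread between libraries allows to call. Zfp933, at 18.7 CPM in the input, was above it in the Hom and Het and below it in the WT m5C RIP library. The fibroblast input, with 228852 counts, detected 4 of the 63 genes and was used in no test.

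A list of 36 genes, of which 35 were in the tables, held partners of KRAB zinc finger proteins. It also held Zfp57, Zfp809 and Zfp568, which are KRAB zinc finger proteins themselves. For fibroblast over cortex m5C RIP 11 of 33 tested, Zfp57 among them, were higher and 9 lower (edgeR, where 33% and 30.9% of all genes were). Trim28, the co-repressor itself, was at 237 CPM in Hom, 273 in Het and 212 and 275 in WT fibroblasts, against 90.9 in Hom, 125 in Het and 97.7 in WT cortex. Its groups did not overlap (log2 fold change 1.43 ± 0.18, edgeR adjusted p = 6.85e-06). Uhrf1, which guides Dnmt1 to hemimethylated DNA, was higher by 4.35 ± 0.39 on the log2 scale, whereas Setdb1 (log2 fold change -0.95 ± 0.24), its partner Atf7ip (-0.94 ± 0.19) and Dnmt3a, a de novo DNA methyltransferase (-1.44 ± 0.23), were lower. For Dnmt1 RIP over m5C RIP 2 of 34 were higher, Dnmt3b (1.52 ± 0.51) and Suv39h2 (2.35 ± 0.72), and 11 lower, where 17.5% and 22.6% of all genes were. Trim28 was among the lower genes, at 38.9 and 122 CPM in Hom, 170 and 94.4 in Het and 106 and 134 in WT Dnmt1 RIP, each below the lowest m5C RIP library of 212 CPM (-1.52 ± 0.30, edgeR adjusted p = 0.000941). For genotype, and for cortex m5C RIP over input, 0 of 32 to 34 genes of the list were called.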

How the data were processed

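The deposited values were raw counts of reads per gene, 1 table per library, with 31017 gene symbols each. Per the submitters' processing notes, Trim Galore 0.4.1, HISAT2 and featureCounts were used with mm10; the sources used here give neither the annotation nor the strand setting nor the other versions. Per the labels' protocols, ribosomal RNA was depleted and polyA RNA enriched, without saying which library had which. In 6 tables, 89.9 to 96.2% of all entries stood in 5 rows that name no gene; these rows entered neither library sizes nor tests. Groups came from the titles.

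From the counts, edgeR 4.0.16 (R 4.3.3) was run on all genes, with TMM normalization and the quasi-likelihood F test, after a group-wise filterByExpr at a count of 10 and a total of 15. Adjusted p-values are Benjamini-Hochberg over every gene tested, with a threshold of 0.05. The 8 comparisons came from fits of the 7 m5C RIP, 10 fibroblast, 6 Dnmt1 RIP and 4 cortex libraries. The cortex input fit takes the 3 genotypes as replicates. A standard error is the fitted log2 change over the square root of its F statistic. The fits were checked on simulated data. CPM was computed from the total gene counts of a library. Intervals are exact binomial at 95%. Alternatives were RLE factors, total counts, no filter, DESeq2 1.42.0, leaving out each library, a replicate block, and tables of 1 layout.

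Coordinates, exon lengths and transcripts came from GENCODE M21, and promoter windows from RefSeq GRCm38.p6. Pandas 2.3.3, SciPy 1.17.1 and Biopython 1.88 in Python 3.11.15 were used. The genes, lists and tests were chosen with earlier results of these data known. Genes were named by rule: in each comparison up to 8 called per direction with the smallest p, or the 3 smallest p where none was called; the 6 highest levels per kb; those at 0 everywhere; and up to 3 per cluster with the highest CPM. Zfp979, Zfp982 and Zfp985 were also named after their values were seen, and the rest are given by counts and ranges.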

Additional observations from a re-analysis of the deposited data

Results flagged for a closer look

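The fibroblast input was used in no test. In it, Zfp930 had 5 counts and Zfp940 had 4 counts, each above the 3 counts that a count of 0 allows, which are 13.1 CPM in this library. Zfp943 and Zfp945 were the only others of the 63 genes with counts there. The same library gave 58.4% of its counts to 4 genes, and the part of this in the 2 values was not tested.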

How the results depend on the processing

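The genes called higher in fibroblast than cortex m5C RIP numbered 9 of 60 with no filter on low counts (17.3% of all genes), 1 of 28 within the tables that hold extra entries (29.2%), and 1 to 3 when a library was left out (28.2 to 33.2%). Those called lower numbered 4 with DESeq2 (26.2% of all genes) and 5 to 8 when a library was left out (25.1 to 31.3%). For the antibodies, 4 of 62 were called higher with no filter (9.83% of all genes), 0 within the tables of genes alone (6.6%), and 1 to 7 when a library was left out (9.85 to 19.7%). Fewer libraries or other genes were tested in these settings except DESeq2. The cause of the changed numbers was not tested in any setting. Over the genes called, 170 settings gave the same call, 80 lost it and 0 turned the direction.

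Among genes that were not called, 7 values turned. When a library was left out, the log2 fold change of Hom over WT in the Dnmt1 RIP ranged from -0.061 (without Hom library 1) to 1.84 for Zfp992 and from -2.56 to 0.32 (without Hom library 2) for Zfp936. That of Hom over Het ranged from -0.040 to 1.65 for Zfp964 and from -0.083 to 1.63 for Zfp941, with the lower value of both without Hom library 1. That of Hom over WT in the m5C RIP ranged from -0.14 to 0.94 for Zfp933 and from -0.089 to 1.23 for Zfp975, with the lower value of both without the cortex WT library, and became 0.10 for Zfp942 within the tables that hold extra entries. The cause was not tested.

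Libraries with the same replicate number did not deviate together in the Dnmt1 RIP (r across 13589 genes -0.006, 0.202 and 0.059), so the numbers were not taken as pairs. With the replicate number as a block, 0 genes were called in each genotype comparison of the Dnmt1 RIP, and 0 of 7 between the antibodies in WT alone, where 12.1% of all genes were called higher and 15.9% lower. The replicate block changed no call other than these. Depth limited low genes, since in the shallowest library 3 counts are 13.8 CPM.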
